A study of Mus musculus with 21 samples.

Results

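The genes described here are 9 members of the BCL2 family, taken by gene name from a table of 12994 genes measured in mouse spleen T cells, and all 9 were found in it. They are the survival genes Bcl2, Mcl1 and Bcl2l1, the effector genes Bax and Bak1, and the BH3-only genes Bcl2l11, Bid, Bad and Pmaip1. Proteins of this family meet at the outer mitochondrial membrane, where BAX and BAK form the pores through which cytochrome c leaves and sets off the caspases. BCL2, MCL1 and BCL-XL (the product of Bcl2l1) bind and restrain the effectors and the BH3-only proteins, which in turn free or activate the effectors after stress, loss of cytokine or signals from death receptors. In resting T cells, interleukin-7 is known for keeping BCL2 levels up, MCL1 is required for survival, and BIM (the product of Bcl2l11) is known for the removal of lymphocytes that lose cytokine support.

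The RNA of sorted splenic CD4+ and CD8+ T cells of C57BL6/J mice, all female, was sequenced with unique molecular identifiers (UMIs), random tags that let copies of one cDNA molecule be counted once. Mice of the enriched environment (EE) lived in large cages with wheels, tunnels and toys, and mice of the standard environment (SE) in smaller cages without objects. In both environments the housing lasted 4 weeks, from the age of 4 weeks. The 4 groups were CD4+ EE (n = 6), CD4+ SE (n = 5), CD8+ EE (n = 6) and CD8+ SE (n = 4), and 9 of the 12 mice gave both populations. No other genotype, agent or treatment is named for any group. Cages differed between the environments, and mice of one environment may have shared a cage, so effects of the cage and of the environment cannot be told apart.

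The values are molecule counts divided by a size factor per sample, called normalized counts below. Whole molecules were recovered for 100% of the values, and a sample held 145546 to 221454 molecules. All 8 T cell markers examined were present in each group, with Cd3d the most abundant. The summed CD4 markers (Cd4 and Zbtb7b) averaged 70.0 ± 13.9 (SD) in the 11 CD4+ samples against 0.467 ± 0.660 (SD) in the 10 CD8+ samples, and the summed CD8 markers (Cd8a, Cd8b1 and Runx3) averaged 10.5 ± 3.798 (SD) and 325 ± 21.8 (SD), so the labelled populations held their defining markers. Single libraries stood apart in other ways. CD4+ SE replicate 6 had almost no Bax, and the tests of Bax and the medians over members that rest on it are given with and without it. CD8+ SE replicate 3 and CD8+ EE replicate 6 had summed erythroid markers of 1033 and 580.5 (5 globin and heme genes, Hba-a1 the most abundant), against 0 to 26.7 in the other samples. The summed myeloid markers (5 of 8 in the table, Tyrobp the most abundant over all samples) reached 21.2 at most, and the summed NK cell markers (3 of 5 in the table, Eomes the most abundant) reached 7.77.

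Among the survival genes, Bcl2, whose protein holds back BAX and BIM, lies on the minus strand of chromosome 1 (chr1:106538178-106714274, GRCm38). Its normalized count in CD4+ EE samples ran from 39.0 to 61.3 with a median of 42.8. In CD4+ SE samples it was 31.9, 46.7, 32.0, 50.3 and 63.1 in replicates 1, 3, 4, 5 and 6. CD8+ EE samples ran from 38.0 to 56.3 with a median of 43.5, and CD8+ SE replicates 1, 2, 3 and 6 had 41.1, 41.9, 41.5 and 34.6. The 4 groups overlapped throughout, the lowest and the highest sample were both CD4+ SE mice, and the CD8+ SE samples lay closest together. By group mean the order was CD4+ EE at 45.8 ± 8.301 (SD, n = 6), CD4+ SE at 44.8 ± 13.2 (SD, n = 5), CD8+ EE at 44.7 ± 6.72 (SD, n = 6) and CD8+ SE at 39.8 ± 3.47 (SD, n = 4). No neighbours in this order differed by more than the larger of their SDs. Each sample rested on 31 to 58 Bcl2 molecules. In 7 of the 9 mice with both populations, Bcl2 was higher in the CD4+ sample.

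Mcl1 encodes a short-lived survival protein that restrains BAK and binds BIM and NOXA, and lies on the plus strand at chr3:95658788-95663176. In CD4+ EE samples its normalized count ran from 34.0 to 70.2 with a median of 48.5. CD4+ SE replicates 1, 3, 4, 5 and 6 had 49.4, 43.0, 69.5, 51.3 and 40.5. In CD8+ EE samples it ran from 37.7 to 55.0 with a median of 47.7, and CD8+ SE replicates 1, 2, 3 and 6 had 43.7, 38.2, 53.9 and 59.6. The highest Mcl1 values came from CD4+ samples, EE replicates 4 and 5 and SE replicate 4, and the groups overlapped. Group means fell in the order CD4+ EE (52.2 ± 13.4, SD, n = 6), CD4+ SE (50.8 ± 11.4, SD, n = 5), CD8+ SE (48.8 ± 9.68, SD, n = 4) and CD8+ EE (46.9 ± 7.33, SD, n = 6), again with no neighbours apart by more than the larger SD. The CD4+ sample was the higher in 5 of 9 mice and the CD8+ sample in 4.

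Bcl2l1, the gene of BCL-XL, on the minus strand at chr2:152780668-152831728, was near the limit of detection. It had 0 to 5 molecules per sample and 31 molecules over all 21 samples, and it was detected in 2 of 6 CD4+ EE, 4 of 5 CD4+ SE, 3 of 6 CD8+ EE and 3 of 4 CD8+ SE samples. This made 9.60 per 1000000 molecules in CD4+ samples (exact 95% Poisson interval 5.69 to 15.2) and 6.70 in CD8+ samples (3.57 to 11.5), intervals that cover counting error only. Overlap of these intervals is no test of the difference. A limma fit without the filter on means gave 0.12 on the log2 scale for CD4+ minus CD8+ (95% interval -0.62 to 0.86, adjusted p = 0.935). By group mean CD4+ SE came highest, followed by CD8+ SE, CD4+ EE and CD8+ EE, with every neighbour within the larger SD.

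Bax, the pore-forming effector, lies on the minus strand at chr7:45461697-45466898. Its normalized count ran from 18.2 to 34.5 with a median of 28.5 in CD4+ EE samples and from 20.4 to 39.1 with a median of 30.9 in CD8+ EE samples. CD8+ SE replicates 1, 2, 3 and 6 had 24.8, 32.6, 31.8 and 27.9. CD4+ SE replicates 1, 3, 4, 5 and 6 had 28.8, 33.9, 17.4, 33.2 and 1.13. Of all 21 samples, 20 thus lay between 17.4 and 39.1 in overlapping groups, and CD4+ SE replicate 6 stood far below them with 1 molecule. The other 20 samples held 17 to 44 Bax molecules, and at their common rate this library would have held 25.5 (an observed count of 1 has an exact 95% Poisson interval of 0.0253 to 5.57). The library held 157556 molecules, the fewest of the CD4+ SE samples, where all samples held 145546 to 221454. It had 9545 genes detected, and the CD8+ sample of the same mouse had a Bax value of 27.9. The cause of the low value was not tested.

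The loss in that library was examined further after it had been seen. There were 20015 combinations of a gene and a sample in which each of the other 20 samples held at least 15 molecules of the gene, and Bax in CD4+ SE replicate 6 was the only one with at most 1 molecule in the sample itself. With a minimum of 10 molecules there were 28546 combinations and 2 such losses, Bax and Arl6ip4 (1 molecule), both in this library. Around the group means the spread of Bax was 2.84 times the variance that counting alone gives, and 1.501 times without this library, against a median of 1.67 over the 2727 genes with a mean above 10. For Mcl1 the same ratio was 2.26 and for Bcl2 1.67. Group means of Bax were ordered CD8+ EE (30.0 ± 7.28, SD, n = 6), CD8+ SE (29.3 ± 3.61, SD, n = 4), CD4+ EE (26.9 ± 6.04, SD, n = 6) and CD4+ SE (22.9 ± 13.8, SD, n = 5), and no neighbours differed by more than the larger SD. Without replicate 6 the CD4+ SE mean was 28.3 ± 7.64 (SD, n = 4). A second gene annotated on the same strand, not used here, shares 192 of the 1576 exonic bases of Bax.

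Bak1, the other effector, on the minus strand at chr17:27019810-27029009, had 14 molecules in all. It was seen in 3 of 11 CD4+ samples, with 1 molecule in each, and in 6 of 10 CD8+ samples, with up to 3. This was 1.60 per 1000000 molecules in CD4+ samples (exact 95% Poisson interval 0.330 to 4.68) and 5.67 in CD8+ samples (2.83 to 10.1). Without the filter on means, limma gave a Bak1 difference of -0.53 on the log2 scale, CD4+ minus CD8+ (95% interval -1.10 to 0.04, adjusted p = 0.437). The CD8+ EE, CD8+ SE, CD4+ EE and CD4+ SE means followed in that order with each neighbour within the larger SD. Ggnbp1, a gene of the opposite strand, shares 614 of the 2407 exonic bases of Bak1, so that counts of Bak1 are uncertain where strand was not used, and the use of strand is not given in the sources used here.

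The BH3-only genes were each counted in few molecules. Bcl2l11, the gene of BIM, on the plus strand at chr2:128126038-128162547, ran from 3.78 to 8.581 with a median of 5.05 in CD4+ EE samples and from 1.93 to 10.3 with a median of 7.19 in CD8+ EE samples. CD4+ SE replicates 1, 3, 4, 5 and 6 had 7.21, 2.75, 3.66, 3.800 and 3.38. CD8+ SE replicates 1, 2, 3 and 6 had 12.8, 4.66, 8.83 and 9.61. In SE mice, 4 of the 5 CD4+ samples lay below all CD8+ samples and replicate 1 overlapped them, while in EE mice the CD8+ values spread on both sides of the CD4+ values. Bcl2l11 was detected in all 21 samples, with 2 to 15 molecules, and was the higher in the CD8+ sample in 7 of 9 mice. The means fell in the order CD8+ SE (8.99 ± 3.37, SD, n = 4), CD8+ EE (6.63 ± 3.38, SD, n = 6), CD4+ EE (5.38 ± 1.72, SD, n = 6) and CD4+ SE (4.16 ± 1.75, SD, n = 5), with no neighbours apart by more than the larger SD. Groups further apart in this order did differ by more, CD8+ SE from CD4+ SE by 4.83 and from CD4+ EE by 3.60, against a larger SD of 3.37. They were the only such pairs among 54 over the 9 members (3.70%), against 14.2% of the pairs over 7938 genes with a mean above 2.

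Bid, whose product is cut by caspase-8 and carries the signal of death receptors to the mitochondrion, lies on the minus strand at chr6:120891930-120916853. In CD4+ EE samples it ran from 0 to 3.78 with a median of 1.07, and in CD8+ EE samples from 0.940 to 5.83 with a median of 2.87. CD4+ SE replicates 1, 3, 4, 5 and 6 had 0, 0.915, 0, 2.85 and 2.252. CD8+ SE replicates 1, 2, 3 and 6 had 1.71, 8.38, 1.77 and 2.88. Bid was therefore listed in 6 of 11 CD4+ samples and in 10 of 10 CD8+ samples, the highest being CD8+ SE replicate 2, and the ranges overlapped. The 14 molecules of the CD4+ samples made 7.47 per 1000000 molecules (exact 95% Poisson interval 4.08 to 12.5) and the 36 molecules of the CD8+ samples 18.6 per 1000000 molecules (13.0 to 25.7). These intervals cover counting error only, and the spread of Bid within groups was 1.81 times the counting variance. Within mice the CD8+ sample was the higher in 8 of 9. By group mean Bid followed the order CD8+ SE (3.69), CD8+ EE (3.02), CD4+ EE (1.44) and CD4+ SE (1.204), each neighbour within the larger SD. Bcl2l13, a family gene on the opposite strand, shares 628 of the 3550 exonic bases of Bid.

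Bad, whose product binds BCL2 and BCL-XL and is kept inactive by phosphorylation, lies on the plus strand at chr19:6941861-6951899. It ran from 0 to 7.48 with a median of 4.175 in CD4+ EE samples and from 2.58 to 6.33 with a median of 4.28 in CD8+ EE samples. CD4+ SE replicates 1, 3, 4, 5 and 6 had 2.06, 9.15, 5.49, 1.90 and 0. CD8+ SE replicates 1, 2, 3 and 6 had 4.28, 4.66, 9.71 and 3.84. Samples without a Bad molecule were both CD4+ (EE replicate 2 and SE replicate 6), and the highest value was in CD8+ SE replicate 3, the sample with the highest erythroid markers. The other sample with high erythroid markers, CD8+ EE replicate 6, had the lowest Bad value of the CD8+ samples (2.58). The part of those markers in the Bad values was not tested. Group means were 5.62 in CD8+ SE, 4.34 in CD8+ EE, 3.78 in CD4+ EE and 3.72 in CD4+ SE samples, with no neighbours beyond the larger SD. Gpr137 on the opposite strand shares 524 of the 2558 exonic bases of Bad.

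Pmaip1, the gene of NOXA, which binds MCL1, gave 8 molecules in 5 of 21 samples. It had 2 molecules in each of CD4+ SE replicates 3 and 4 and in CD8+ SE replicate 1, and 1 molecule in CD8+ SE replicate 3 and CD8+ EE replicate 2. The 6 CD4+ EE samples had none among 993703 molecules, which allows up to 3.02 per 1000000 molecules (3 counts of the total). Its group means ran from CD4+ SE (0.732) through CD8+ SE (0.649) and CD8+ EE (0.161) to CD4+ EE (0), and no order can be read from counts this low.

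**Figure D1:**
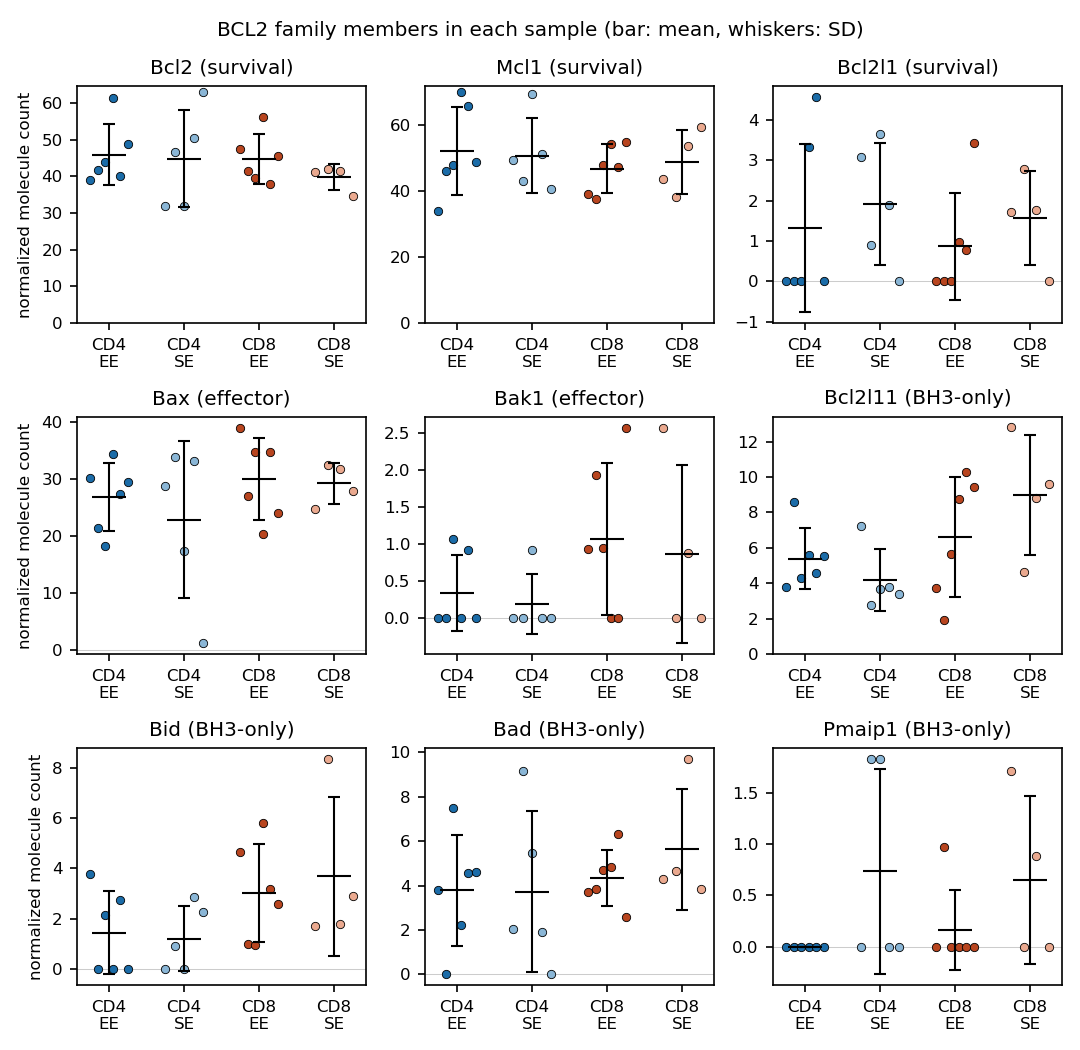
Normalized molecule count (vertical axes, linear) of each of the 9 BCL2 family members in the CD4+ and CD8+ samples of EE and SE mice, with 1 point per sample, the group mean as a bar and the SD as whiskers. The groups overlap for every member, and the single low Bax point is CD4+ SE replicate 6, at 1.13.

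The members were also summed by role in each sample. The summed normalized count of the 3 survival genes was 98.5 ± 16.2 (SD, n = 11) in CD4+ and 91.6 ± 10.1 (SD, n = 10) in CD8+ samples. The 4 BH3-only members summed to 10.2 ± 2.66 (SD, n = 11) and 16.1 ± 4.53 (SD, n = 10). The effector genes Bax and Bak1 summed to 25.3 ± 9.85 (SD, n = 11, with CD4+ SE replicate 6 at 1.13) and 30.7 ± 5.58 (SD, n = 10). Their sum was larger in the CD8+ sample in 5 of 9 mice. The summed B cell markers given below also differed, at 183 in CD4+ and 50.2 in CD8+ samples, and their part in these sums was not tested. In SE mice the BH3-only sums were 5.63 to 14.6 in CD4+ samples and 16.3 to 21.2 in CD8+ samples, without overlap. The samples were also apart for 3.64% of the single genes with a mean above 2 (289 of 7938). That share is no reference for a sum of 4 genes. In EE mice the sums were 7.80 to 13.9 and 7.73 to 19.8. The CD8+ sample had the larger BH3-only sum in 7 of 9 mice. Bbc3 and Bik, BH3-only genes outside the members, were not in these sums and were higher in CD4+ samples. Bbc3 had a mean of 3.94 in CD4+ and 2.86 in CD8+ samples, and Bik 0.884 and 0. The lack of overlap in SE mice is thus given for the 4 members alone, and was not examined with these genes added. The sums by role are a description and were not tested, and neither was a difference between EE and SE mice in them. Across the 21 samples the members with a mean of at least 10 varied with little relation to each other. Pearson's r of log2(normalized count + 1) was -0.06 for Bcl2 and Mcl1 (n = 21). For Bcl2 and Bax it was -0.38, and 0.20 without CD4+ SE replicate 6, while for Mcl1 and Bax it was 0.10 and -0.30.

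Of the 2726 other genes with a mean of at least 10, Psma3 (r = 0.71), Atp2b1 (r = 0.68) and Polr2j (r = 0.65) had the patterns most like that of Bcl2 over the 21 samples. For Mcl1 they were Gnb1 (r = 0.76), Pitpnm1 (r = 0.74) and Idnk (r = 0.73). For Bax they were Eef2 (r = 0.93), Sla (r = 0.86) and Mrps18b (r = 0.83), and without CD4+ SE replicate 6 these fell to 0.37, 0.46 and 0.20. That likeness thus rested on the library in which Bax was nearly absent. Eef2 had a value of 71.0 there against 181 to 232 in the other samples, Sla was listed at 0 against 3.88 to 20.1, and Mrps18b had 3.38 against 11.9 to 25.7.

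Between CD4+ and CD8+ samples Bcl2 and Mcl1 had the smallest differences of the members tested, and the effector Bax and the 3 BH3-only genes with enough molecules had lower mean values in CD4+ samples, but none of the members passed the test. Genes entered a test when their mean normalized count over its samples was above 2, which 6 of the 9 members did here (Bcl2, Mcl1, Bax, Bcl2l11, Bid and Bad). The difference was estimated with limma on log2(normalized count + 1), a scale that understates changes of genes with few molecules. Members past an adjusted p of 0.05 numbered 0 of 6, against 4.4% of all 7938 genes tested (349 genes). At an unadjusted p under 0.05 there were 2 of 6 members (Bax and Bid) and 1176 of 7938 genes. Bid entered the test through its CD8+ samples, so its place in this count is no support for a difference. Without the filter its limma adjusted p was 0.202. edgeR and DESeq2 on the recovered molecules each called 0 members as well. The median difference of the 6 members, CD4+ minus CD8+, was -0.52 on the log2 scale, and that of all genes tested was -0.0073. Without CD4+ SE replicate 6 the members' median was -0.24, and Bid alone was at an unadjusted p under 0.05.

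Bcl2 differed by 0.08 on the log2 scale between the populations (SE 0.13, 95% interval -0.18 to 0.33, adjusted p = 0.845) and Mcl1 by 0.09 (SE 0.13, 95% interval -0.17 to 0.34, adjusted p = 0.821). The intervals bound a change of either gene to between 0.884-fold and 1.27-fold. Bid, which passed the filter through its CD8+ samples (mean 3.29, against 1.33 in CD4+ samples), differed by -0.99 (SE 0.40, 95% interval -1.79 to -0.20, adjusted p = 0.179), or 1.99-fold higher in CD8+ samples. Bcl2l11 differed by -0.54 (SE 0.29, 95% interval -1.11 to 0.03, adjusted p = 0.370; -0.94 in SE and -0.14 in EE samples alone) and Bad by -0.60 (SE 0.36, 95% interval -1.32 to 0.12, adjusted p = 0.471). Bax differed by -0.49 (SE 0.24, 95% interval -0.98 to -0.0035, adjusted p = 0.332) in limma, by -0.253 in edgeR and -0.250 in DESeq2, and in limma by -0.12 without CD4+ SE replicate 6 (adjusted p = 0.809). In bulk samples such as these, a lower value can stand for fewer cells that express a gene or for less RNA in each of them, which cannot be told apart. When the mouse was entered as a replicate block, the sign of the Mcl1 difference turned (-0.0519), and no member was called. In that fit 1 of 6 members was at an unadjusted p under 0.05.

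Between EE and SE samples of CD4+ T cells the intervals of Bcl2 and Mcl1 were the narrowest of the members, and those of Bax, Bcl2l11 and Bad were wider. Of the 5 members tested (Bcl2, Mcl1, Bax, Bcl2l11 and Bad), 0 were called by limma at an adjusted p under 0.05, against 0.0126% of 7939 genes (1 gene). At an unadjusted p under 0.05 there were 0 members and 462 genes, and edgeR and DESeq2 called 0 members. The median difference, EE minus SE, was 0.16 on the log2 scale over the members, with all 5 differences above 0, and 0.0012 over all genes tested. Without CD4+ SE replicate 6 the sign of the members' median turned, to -0.0474, with 2 of 5 differences above 0. Bcl2 differed by 0.06 (95% interval -0.31 to 0.44), Mcl1 by 0.03 (95% interval -0.34 to 0.39) and Bcl2l11 by 0.33 (95% interval -0.52 to 1.17). Bad, at 0.16, had an interval of -0.96 to 1.28, and its sign turned without CD4+ SE replicate 6 (-0.30). Bid, fitted without the filter on means, differed by 0.0516 (95% interval -0.97 to 1.08, adjusted p = 0.996). Bax differed by 0.69 (SE 0.37, 95% interval -0.05 to 1.42, adjusted p = 0.837) in limma, and by 0.205 in edgeR and 0.232 in DESeq2. Leaving out CD4+ SE replicate 6 turned the sign of the Bax difference, to -0.06 (adjusted p = 0.987).

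In CD8+ T cells the intervals of Bcl2, Mcl1 and Bax between the environments were the narrowest. Among the 6 members tested 0 were called by limma, against 0% of 7840 genes, with 0 members and 413 genes at an unadjusted p under 0.05 and 0 members called by edgeR and DESeq2. Members had a median EE minus SE difference of -0.11 on the log2 scale, and all genes one of -0.0078. Bcl2 differed by 0.16 (95% interval -0.19 to 0.50), Mcl1 by -0.05 (95% interval -0.39 to 0.29) and Bax by 0.01 (95% interval -0.41 to 0.42). These 3 intervals bound the change of each gene in CD8+ samples to between 0.755-fold and 1.41-fold. Wider intervals were left for Bcl2l11 at -0.47 (95% interval -1.25 to 0.31), Bid at -0.17 (95% interval -1.20 to 0.86) and Bad at -0.27 (95% interval -1.10 to 0.57). Without CD8+ SE replicate 3, which had erythroid RNA and the highest Bad value, the Bad difference was -0.01. CD8+ EE replicate 6 also had erythroid RNA, and its Bad value was the lowest of the CD8+ samples (2.58). The sign of the Bid difference turned without CD8+ SE replicate 2, its highest sample (0.23). The Bcl2l11 difference ran from -0.72 to -0.22 as each sample was left out. The summed myeloid markers were apart between these groups, at 2.57, 5.59, 4.42 and 13.5 in CD8+ SE replicates 1, 2, 3 and 6 against 0 to 1.58 in CD8+ EE samples. This rested mostly on Lyz2, with a mean of 4.94 in SE and 0 in EE samples, detected in 4 of 4 and 0 of 6 of them. The other markers overlapped, with Cd68 detected in 2 of 4 and 2 of 6, Tyrobp in 2 of 4 and 1 of 6, and Csf1r in 1 of 4 and 0 of 6. Fcer1g was at 0 in all of these samples.

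The difference between environments was also compared between the populations. The interaction, (EE minus SE in CD4+) minus (EE minus SE in CD8+), was called by limma for 0 of 6 members, against 0% of 7938 genes, with 0 members and 393 genes at an unadjusted p under 0.05 and 0 members called by edgeR and DESeq2. With the mouse as a replicate block, 1 member and 469 genes were at an unadjusted p under 0.05, and 0 members were called. Bcl2l11, whose mean was higher in EE in CD4+ samples and lower in EE in CD8+ samples, had an interaction of 0.79 on the log2 scale (95% interval -0.35 to 1.93, adjusted p = 0.994). For Bax it was 0.68 (95% interval -0.29 to 1.65) in limma, 0.173 in edgeR and 0.174 in DESeq2, and in limma -0.07 without CD4+ SE replicate 6. The members' median was 0.33, and 0.0218 without that library, and that of all genes tested was 0.0049. For Bcl2 and Mcl1 the interaction was -0.09 (95% interval -0.60 to 0.42) and 0.08 (95% interval -0.43 to 0.58).

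**Figure D2:**
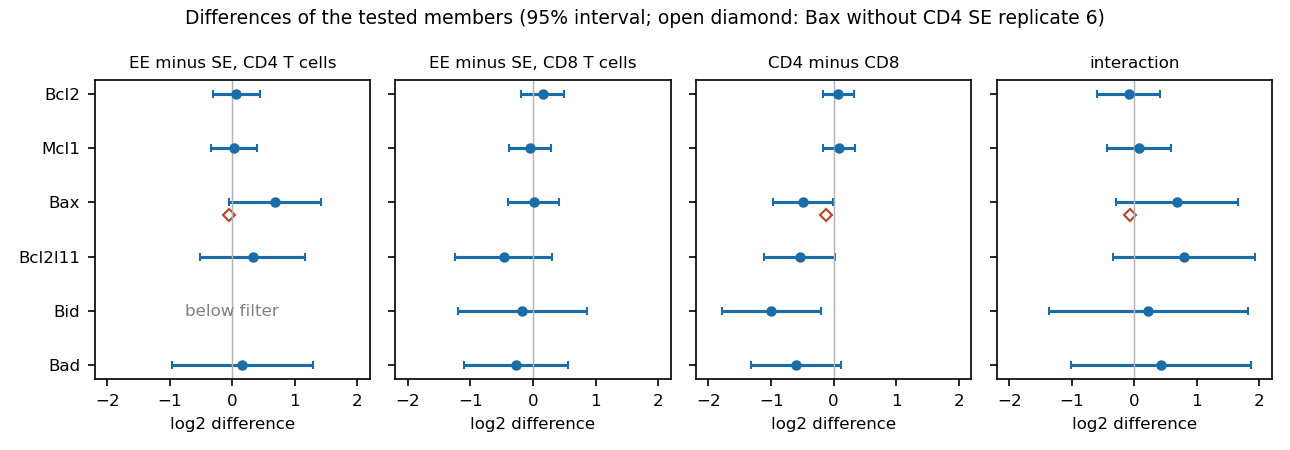
Log2 difference (horizontal axes) of the 6 members with a mean above 2, in the comparisons of EE with SE in each population, of CD4+ with CD8+ samples, and in their interaction, with points for the limma estimates and whiskers for 95% intervals. Open diamonds give Bax without CD4+ SE replicate 6, at -0.06, -0.12 and -0.07, and Bid was below the filter on means between environments in CD4+ samples.

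Among the other genes of the pathway, 6 lists held 69 genes, of which 64 were in the table and 51 were tested between the populations. The test called 1 of them higher and 1 lower in CD4+ samples, against 349 of 7938 genes tested (4.4%). Pim2, a kinase that phosphorylates BAD, was the lower one. It ran from 8.23 to 24.9 with a median of 13.4 in CD4+ EE samples and from 18.0 to 31.9 with a median of 29.7 in CD8+ EE samples. CD4+ SE samples had 9.27, 7.32, 13.7, 23.7 and 11.3, and CD8+ SE samples 36.8, 23.3, 19.4 and 39.4. Pim2 was higher in the CD8+ sample in 8 of 9 mice, with some overlap between the populations, and differed by -1.01 on the log2 scale (SE 0.19, 95% interval -1.40 to -0.62, limma adjusted p = 0.00017), or 2.01-fold. With the summed B cell markers described next, Pim2 had a Pearson's r of -0.08 in CD4+ (rho -0.29, n = 11) and -0.64 in CD8+ samples (rho -0.68, n = 10).

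The one called higher was Bcl2a1d, a copy of the survival gene A1, on the minus strand at chr9:88723285-88731914. It had 51 molecules over 10 of 11 CD4+ samples, at 1.07 to 8.91 in EE (median 4.37) and 0, 10.1, 7.31, 2.85 and 1.13 in SE replicates 1, 3, 4, 5 and 6. Of the CD8+ samples, EE replicate 6 alone had Bcl2a1d (5 molecules, 4.294). Bcl2a1d passed the filter through its CD4+ samples (mean 4.69, against 0.429 in CD8+ samples). The difference was 1.95 on the log2 scale (SE 0.41, 95% interval 1.13 to 2.77, limma adjusted p = 0.00070, higher in CD4+ in 8 of 9 mice), and within SE samples alone it was 1.91 with an adjusted p of 0.280. Without the filter the adjusted p of Bcl2a1d was 0.000329, and the fits to molecules gave larger differences, 3.89 in edgeR and 3.73 in DESeq2. The summed B cell markers were also higher in CD4+ samples. All 9 of that list were in the table, with Cd74 the most abundant over all samples, and their summed normalized count was 183 ± 70.7 (SD, n = 11) in CD4+ and 50.2 ± 21.4 (SD, n = 10) in CD8+ samples. Ighm, at a mean of 40.8 in CD4+ and 37.8 in CD8+ samples, made most of the CD8+ sum. Ms4a1 was at 0 in every CD8+ sample and detected in 9 CD4+ samples. By sample the sum was 137 to 237 in CD4+ EE (median 199) and 35.0, 291, 176, 106 and 242 in CD4+ SE replicates 1, 3, 4, 5 and 6. It was 33.0 to 106 in CD8+ EE (median 46.8) and 38.5, 45.6, 48.6 and 41.3 in CD8+ SE replicates 1, 2, 3 and 6. The CD4+ sample without Bcl2a1d had the lowest B cell sum of its population (35.0), and the CD8+ sample with it had the highest of its own (106). Other samples went the other way. CD4+ EE replicate 4 had the lowest B cell sum of its group (137) and the highest Bcl2a1d value (8.91). CD4+ SE replicate 6 had a sum of 242 with Bcl2a1d at 1.13, and CD4+ EE replicate 2 had 188 with 1.07. Within populations, Pearson's r of Bcl2a1d with that sum was 0.60 in CD4+ (Spearman's rho 0.31, n = 11) and 0.84 in CD8+ samples (rho 0.52, n = 10, resting on EE replicate 6). The cells had been sorted as CD3+ and CD11b- by the methods, and the part of B cell RNA in the Bcl2a1d difference was not tested. For the members Bcl2 and Mcl1, r with the B cell sum within CD4+ samples was 0.37 and -0.21 (rho 0.17 and -0.64, n = 11). Within CD8+ samples both signs were opposite, at -0.10 and 0.31 (rho -0.25 and 0.22, n = 10). For Bax r was -0.24 in CD4+ (rho -0.11) and 0.11 in CD8+ samples (rho 0.42).

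**Figure D3:**
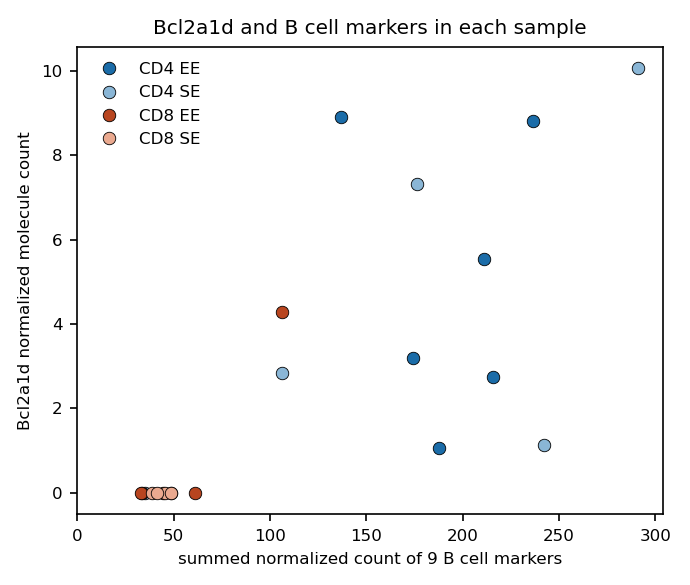
Normalized molecule count of Bcl2a1d (vertical axis) against the summed normalized count of 9 B cell markers (horizontal axis), with 1 point per sample. CD8+ samples lie at 0 except EE replicate 6, at 4.294, and the CD4+ sample at 0 is SE replicate 1.

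Counts of Bcl2a1d are uncertain because its copies Bcl2a1a and Bcl2a1b, on the same chromosome, are nearly identical to it. The coding sequences are 516 bases long in each, with 6 differences between Bcl2a1d and Bcl2a1b and 7 between Bcl2a1d and Bcl2a1a, and 390 of the 467 stretches of 50 bases in Bcl2a1d occur unchanged in another copy. Summed over the 3 copies the normalized count was 12.4 ± 7.49 (SD, n = 11) in CD4+ and 4.187 ± 3.87 (SD, n = 10) in CD8+ samples, higher in CD4+ in 7 of 9 mice. Bcl2a1b alone differed by 0.77 on the log2 scale (95% interval 0.12 to 1.43, limma adjusted p = 0.220). The opening 90 coding bases of the copies (GENCODE M21, GRCm38) are shown because a read within them that misses the 6 positions in capitals, where the copies are not all alike, cannot be given to one copy. They lie at chr9:88957051-88957140 on the plus strand, chr9:89199360-89199449 on the plus strand and chr9:88731630-88731719 on the minus strand, in the order printed.
Bcl2a1a: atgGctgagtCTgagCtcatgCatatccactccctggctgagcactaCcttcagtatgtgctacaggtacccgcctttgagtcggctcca
Bcl2a1b: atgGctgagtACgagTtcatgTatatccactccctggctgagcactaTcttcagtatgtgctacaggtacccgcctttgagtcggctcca
Bcl2a1d: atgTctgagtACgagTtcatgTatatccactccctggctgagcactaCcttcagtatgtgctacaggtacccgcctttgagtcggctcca

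No gene of the 6 lists was called between environments (0 of 51 tested in CD4+, 0 of 50 in CD8+ samples) or for the interaction (0 of 51) by limma. Between the populations, the other BCL2 family genes had 1 of 6 called (Bcl2a1d) and a median log2 difference of 0.20, and the apoptosome and caspases 0 of 7 and 0.10, with Aifm1 at the smallest p (-0.48, adjusted p = 0.590). The inhibitors of apoptosis proteins had 0 of 4 and 0.03, although Birc3 (0.74, 95% interval 0.22 to 1.26, limma adjusted p = 0.099) passed in edgeR (adjusted p = 0.0375) and DESeq2 (adjusted p = 0.0492). The death receptor pathway had 0 of 7 and 0.22, with Cflar at 0.22 (adjusted p = 0.615), the mitochondrial partners and MCL1 turnover 0 of 10 and 0.09, with Ywhae at 0.20 (adjusted p = 0.691), and the upstream survival signals 1 of 17 (Pim2) and -0.09. Between EE and SE the smallest p among upstream signals was that of Trp53 in CD4+ samples (-0.59, 95% interval -1.02 to -0.15, adjusted p = 0.735) and of Il7r, the interleukin-7 receptor, in CD8+ samples (0.36, 95% interval 0.10 to 0.62, adjusted p = 0.837). The channel gene Vdac2 had the smallest p of its list in both populations (0.48 and 0.56, adjusted p = 0.835 and 0.898), and so had Bcl2l13, the gene that overlaps Bid (-0.95 and -0.76, adjusted p = 0.835 and 0.962).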

How the data were processed

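RNA of sorted spleen T cells was measured in 21 samples. Per the labels and the methods, the authors trimmed reads with cutadapt, aligned them to mm10 with STAR 2.4.0a, counted UMIs per gene and divided the counts by DESeq2 size factors, so the deposited signal is a normalized molecule count. Dividing each column by its smallest positive value gave whole molecules (tolerance 0.0001), with a median of 182470 per sample. Samples were grouped by population and environment from the labels. Log2(value + 1) was fitted with limma 3.58.1 (trend, R 4.3.3) for genes with a mean above 2, with Benjamini-Hochberg adjustment over all genes tested and a threshold of 0.05. edgeR 4.0.16 and DESeq2 1.42.0 on recovered molecules, other pseudocounts, filters and scalings, replicate blocks and each sample left out were alternatives. Fits were tried on simulated data, and no outcome of that is given or used here. CD4+ and CD8+ samples of one number and environment came from the same mouse. Their deviations from the group means had a mean correlation of 0.014 over 9 pairs. Members of one group differed by more than sampling noise in all 46 pairs. Members and gene lists were chosen with earlier results of these data known. Named were all 9 members, list genes past the threshold, the gene with the smallest p per list and comparison (a selection of these is printed), and the 3 genes most like each member with a mean of at least 10. Positions and sequences come from GENCODE M21.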

Additional observations from a re-analysis of the deposited data

Results flagged for a closer look

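Single samples far from the rest of their group were looked for in 44 sets of values, the 9 members, Bcl2a1d and Pim2 in each of the 4 groups. A sample stood apart, by the ratio of its gap to the group's range (Dixon), in 8 of them, where chance gives about 1 in 20 for continuous values. That rate does not hold where all other samples of a group are at 0, as for 3 of the 8, in which any value above 0 stands apart. Among the members with many molecules there was Bcl2 in CD8+ SE replicate 6, at 34.6 against 41.1 to 41.9 in the other 3 samples. Bcl2l11 was high in CD4+ EE replicate 2 (8.581 against 3.78 to 5.57) and in CD4+ SE replicate 1 (7.21 against 2.75 to 3.800), which rested on 8 and 7 molecules. Bad was high in CD8+ SE replicate 3 (9.71 against 3.84 to 4.66), with 11 molecules. CD8+ EE replicate 6, with summed erythroid markers of 580.5 and summed B cell markers of 106, was high for Bcl2l1 (3.44, 4 molecules, against 0 to 0.971) and for Bcl2a1d (4.294, 5 molecules, against 0). A single molecule stood behind the remaining ones, Bak1 in CD4+ SE replicate 4 (0.914) and Pmaip1 in CD8+ EE replicate 2 (0.966). The low Bax value of CD4+ SE replicate 6 did not stand apart by this ratio, with the next sample of its group, replicate 4, at 17.4. No cause was tested for any of these values. None of the 11 genes was higher in CD4+ samples in all mice of one environment and in CD8+ samples in all mice of the other.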

How the results depend on the processing

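The count of members called was 0 in all 95 alternatives of the 4 comparisons. The Pim2 call held in each alternative (adjusted p 1.6e-05 to 0.034), and that of Bcl2a1d in each in which it was tested but SE samples alone (adjusted p = 0.280), with differences of 1.75 to 3.89. Counts of all genes called were small between environments and moved. In CD4+ T cells the count went from 1 to 0 with a pseudocount of 0.5, a mean above 10, all 21 samples in the fit or a replicate block of animal number, to 3 without a filter and 2 with edgeR. In CD8+ T cells it went from 0 to 3 without a filter and 2 when a replicate block of animal number was entered. Those numbers mark different mice (mean correlation 0.00695 over 9 pairs), and the block changed no call of a member. Between populations the count went from 349 to 216 with a mean above 10, where fewer genes were tested, and to 227 in EE and 105 in SE samples alone, where fewer samples entered. It was 311 with the mouse as a replicate block.

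Near 0, signs turned for uncalled members, and the cause was not tested. Bad between environments in CD4+ was -0.0146 with edgeR, Bax in CD8+ -0.0047 with equal totals, and with the mouse as a block Mcl1 between populations was -0.0519 and the Bid interaction -0.14. Leaving out each sample in turn gave 0 to 3 genes in CD4+ and 0 to 3 in CD8+. In CD4+ it gave -0.0431 to 0.20 for Bcl2, -0.0664 to 0.14 for Mcl1, -0.0589 to 0.95 for Bax, 0.20 to 0.51 for Bcl2l11 and -0.30 to 0.56 for Bad. In CD8+ it gave -0.16 to 0.0506 for Mcl1, -0.0725 to 0.11 for Bax, -0.72 to -0.22 for Bcl2l11 and -0.37 to 0.23 for Bid. Between populations it gave 0.0103 to 0.13 for Bcl2, 0.0289 to 0.14 for Mcl1, -0.62 to -0.12 for Bax, -0.67 to -0.45 for Bcl2l11, -1.12 to -0.88 for Bid and -0.79 to -0.37 for Bad. For the interaction it gave -0.20 to 0.0407 for Bcl2, -0.0251 to 0.19 for Mcl1, -0.0673 to 0.94 for Bax, 0.55 to 1.04 for Bcl2l11, -0.0318 to 0.48 for Bid and -0.0305 to 0.83 for Bad. Of 1283 alternative values, 1224 were labelled as the same. For a log2 difference this means an unchanged sign and call, and for a count of genes or members a count equal or near to the main one. Bcl2l1, Bak1 and Pmaip1 were tested only without a filter, and all Poisson intervals cover counting error only.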

Other observations

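In CD4+ SE replicate 6, the library with 1 Bax molecule, Arl6ip4 had a normalized count of 1.13 against 10.3 to 37.8 in the other 20 samples. Eef2 had 63 molecules there. These genes were singled out after their values were seen.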
